A study of Mus musculus with 6 samples.

Results

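Divergent pairs of protein-coding gene promoters were examined in 2 mouse cell types by CAGE, which sequences the 5′ ends of capped RNA and so counts transcription starts base by base. A pair was formed by a gene on the minus strand and a gene on the plus strand that lie head to head in the GENCODE M21 annotation of mm10, with annotated 5′ ends 1 to 1000 bp apart and no overlap. The rule found 754 pairs among 21938 protein-coding genes, holding 1487 genes (6.78% of all), of which 21 belonged to 2 pairs. The 5′ ends were 129.5 bp apart at the median, with quartiles of 67 and 240 bp and a maximum of 987 bp. For each gene, the tags on its own strand within 500 bp of its 5′ end were summed and divided by the library total, which gives tags per 1000000 tags (TPM, with no correction for transcript length). A gene was called active in a cell type at a mean of at least 1 TPM. In 704 pairs the genes had windows of their own. Each was in 1 pair only and had no other protein-coding 5′ end within 1000 bp on its strand. The other pairs can share tags with each other but are counted separately.

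The 3 libraries labelled mESC came from R08 mouse embryonic stem cells, grown without feeder cells in medium with LIF and serum. The 3 libraries labelled mOPC came from Oli-neu, a neural line derived from mouse oligodendrocyte progenitors, expanded with thyroid hormones, bFGF and PDGF-BB. Both are single lines without any genetic or drug treatment named in the labels, and all 6 libraries were made from nuclear RNA. Totals ran from 16657021 to 37888141 tags in mESC and from 21925299 to 40928704 tags in mOPC. Each cell type carried 1 library name of its own in the files, so the library preparation and the cell type cannot be told apart. The labels do not say whether the 3 libraries of a line were separate cultures, so that p-values measure only the spread between libraries, which may be technical. Of 10 stem cell markers, 8 were active in mESC, and their sum was 3102 to 3255 TPM there against 41.1 to 46.0 in mOPC. Esrrb and Fgf4 were under the threshold in mESC, and 2 of the 10 were active in mOPC. Of 10 oligodendrocyte progenitor markers, 8 were active in mOPC, with a sum of 2197 to 2338 against 23.8 to 26.3 TPM in mESC, and Nkx2-2 and Pdgfra were under the threshold in mOPC. These 2 markers went the other way and were higher in mESC. Of the 10, 4 were active in mESC, Pdgfra among them. Among 5 markers each, neuronal genes summed to 275.2 to 301.3 TPM in mESC and 80.5 to 101.3 in mOPC, fibroblast genes to 17.4 to 22.9 and 79.7 to 81.4, astrocyte genes to 70.9 to 86.7 and 12.5 to 13.6, and endoderm genes to 4.42 to 5.73 and 0. Of the 5 in each list, 3 neuronal, 2 fibroblast, 2 astrocyte and 2 endoderm genes were active in mESC. In mOPC 1, 2, 1 and 0 were, so these sums rest on few genes. Against the fibroblast sum, 2 of the 5 genes, Col1a2 and Thy1, were higher in mESC. The part of other cells in the values of the pairs was not tested.

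Genes that share a promoter region in this way are common in mammals. The stretch between the start sites is often a CpG island, a GC-rich region that keeps its CpG dinucleotides, and it is read in both directions from 2 separate core promoters. Such arrangements are known for housekeeping functions, among them DNA repair, mitochondrial proteins and histones. The nearness of the promoters raises the questions of how evenly the 2 genes are transcribed, whether they change together between cell types, and whether the distance matters.

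Of the shared regions, 6 are shown first because they carry the patterns described later. Each run is the plus strand of GRCm38.p6 from RefSeq and reaches from the start of the minus-strand gene, at the left end, to the start of the plus-strand gene, at the right end. The starts are the positions with the most tags in mESC, taken 1 base further into each gene for the reason given below. Capitals mark matches on either strand to 8 short motifs, which are the GC box (GGGCGG), the CCAAT box (CCAAT), the core of ETS factor sites (CGGAAG), NRF1 (GCATGCGC) and YY1 (AAGATGG) cores, the CRE (TGACGTCA), the E box (CACGTG) and the TATA box (TATAAA). The first pair was transcribed most equally in both cell types.
Slc7a6os/Prmt7, chr8:106210933-106211028: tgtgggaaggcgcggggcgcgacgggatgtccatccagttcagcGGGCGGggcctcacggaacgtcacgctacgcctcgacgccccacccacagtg
The next is a pair of mitochondrial translation genes that fell together in mOPC.
Mrps12/Sars2, chr7:28741788-28741994: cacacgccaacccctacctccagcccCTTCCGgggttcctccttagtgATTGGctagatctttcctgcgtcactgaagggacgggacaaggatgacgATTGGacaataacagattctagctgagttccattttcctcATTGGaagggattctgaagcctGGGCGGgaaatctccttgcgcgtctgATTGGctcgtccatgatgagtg
The following pairs changed in opposite directions within a short stretch, which is 214 bases long in each, with both starts and the added base on either side counted.
Cenpx/Lrrc45, chr11:120713738-120713951: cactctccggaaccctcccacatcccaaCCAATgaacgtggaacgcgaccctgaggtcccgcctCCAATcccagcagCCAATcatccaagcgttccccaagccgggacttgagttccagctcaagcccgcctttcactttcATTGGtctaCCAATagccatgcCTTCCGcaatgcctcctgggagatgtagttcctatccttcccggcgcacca
Rad9b/Vps29, chr5:122354196-122354409: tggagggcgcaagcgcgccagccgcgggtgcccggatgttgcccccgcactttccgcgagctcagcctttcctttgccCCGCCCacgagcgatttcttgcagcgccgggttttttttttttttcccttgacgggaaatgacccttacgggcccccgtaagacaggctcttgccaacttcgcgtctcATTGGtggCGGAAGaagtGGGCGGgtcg
The last pairs had tags in both windows in mESC and none in either in mOPC.
N4bp3/D930048N14Rik, chr11:51650867-51650980: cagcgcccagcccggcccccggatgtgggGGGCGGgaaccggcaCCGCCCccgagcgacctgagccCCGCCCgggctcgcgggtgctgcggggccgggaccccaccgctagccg
Plcd3/Acbd4, chr11:103101635-103101743: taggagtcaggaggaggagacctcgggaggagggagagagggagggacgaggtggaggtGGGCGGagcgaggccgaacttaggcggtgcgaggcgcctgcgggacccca
The most equal region was 70.8% G and C with 13 CpG and a single GC box. The Cenpx/Lrrc45 region held CCAAT boxes and an ETS core but no GC box and was 57.9% G and C. The region of N4bp3 and D930048N14Rik was 83.3% G and C with 16 CpG. Rad9b/Vps29 and Mrps12/Sars2 both held GC box, CCAAT box and ETS core matches, although one pair changed in opposite directions and the other together.

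RefSeq promoters of 300 bases were matched by symbol to 1091 of the 1487 genes. They were richer in CpG than other promoters. The median ratio of observed to expected CpG was 0.871 for the 1028 matched members active in at least 1 cell type and 0.768 for 7956 active genes outside the pairs. The ETS core was found in 49.4% of the active members, 31.2% of the active genes outside the pairs and 24.1% of all matched promoters. The YY1 core was found in 11.2%, 7.06% and 6.76% of these promoters, and the TATA box in 2.92%, 6.60% and 11.3%. The GC box was found in 71.0% of the active members and 68.5% of the active genes outside the pairs, and in 51.6% of all matched promoters. The CCAAT box was found in 44.6%, 39.0% and 39.1%, the NRF1 core in 7.20%, 5.91% and 4.18%, the CRE in 5.16%, 3.32% and 2.67%, and the E box in 11.3%, 10.61% and 8.67%. The 2 promoters of a close pair share bases, so these members are not independent promoters, and a match is a description of letters only.

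The base at the start gave a measure of where the deposited positions lie. Transcription usually begins at a purine that follows a pyrimidine. At the recorded position itself, only 2.21% of 996 member starts in mESC and 2.01% of 994 in mOPC were a purine after a pyrimidine. At 1 base downstream, 88.6% and 89.1% were, as were 88.3% and 88.9% of the starts of other protein-coding genes. The shift was the same on both strands: over all genes in mESC, 95.2% of plus-strand and 94.9% of minus-strand starts had a purine 1 base downstream. The deposited positions thus lay 1 base upstream of the purine, and its cause was not tested. Moving the windows by this base, a check added after the values were seen, changed the summed tags of the members by at most 0.0249% in any library and the activity of 0 of the genes in either cell type.

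Members were active far more often than protein-coding genes as a whole. In mESC 1326 of the 1487 genes (89.2%) were active against 52.3% of all protein-coding genes, and in mOPC 1329 (89.4%) against 47.7%. The windows of the pairs held 8.71%, 8.68% and 8.65% of all mESC tags, by library, and 6.25%, 6.19% and 6.12% of all mOPC tags. The same share for the windows of all protein-coding genes is not given here, so a difference particular to the pairs is not shown. In bulk libraries, a promoter used in fewer cells and one used less per cell cannot be told apart. The libraries of the cell types did not overlap (8.68% ± 0.0305 against 6.19% ± 0.0669, SD, n = 3 each, exact permutation test, two-sided, p = 0.1, the smallest that 3 against 3 allows). For active members, a median of 95.7% of the tags from the window to the gene's end lay in the window in mESC and 93.1% in mOPC, so that the window held nearly all starts of most active members. For all active protein-coding genes the medians were 93.9% and 90.6%. Activity was itself defined by tags in the window, so genes with few tags there are left out of these medians. Starts further inside a gene are not counted in the values that follow.

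Both genes were active in most pairs. This was so for 637 pairs in mESC (84.5%) and 650 in mOPC (86.2%), and 617 pairs had both genes active in both cell types. A single gene was active in 72 pairs in mESC and 49 in mOPC, and neither in 45 and 55. With windows of 200 bp on each side, both genes were active in 586 pairs in mESC and 606 in mOPC. In pairs up to 500 bp apart, the windows used here reach past the partner's 5′ end, unlike those of pairs over 1000 bp apart. Starts there on the gene's own strand are counted for the gene, and their part was not tested. By library, 633, 632 and 636 pairs had both genes active in mESC and 650, 649 and 651 in mOPC, without overlap (exact permutation p = 0.1). In other neighbouring genes both were active less often, at 58.9% and 61.1% of the 450 head-to-head pairs whose 5′ ends overlap by up to 1000 bp, 36.9% and 30.4% of divergent neighbours more than 1000 and up to 10000 bp apart, and 30.5% and 24.2% of tandem neighbours at that distance.

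Transcription from the 2 sides was rarely even. Among pairs with both genes active, the stronger gene exceeded the weaker by 3.46-fold at the median in mESC and 2.67-fold in mOPC. The genes were within 2-fold of each other in 180 pairs in mESC (28.3%) and 241 in mOPC (37.1%), and more than 10-fold apart in 139 (21.8%) and 94 (14.5%). Within 2-fold were 26.42% of pairs with overlapping 5′ ends, 27.08% of more distant divergent pairs and 29.75% of tandem pairs in mESC. In mOPC these shares were 29.82%, 33.58% and 28.96%. More than 10-fold apart were 25.66%, 21.54% and 19.02% in mESC and 17.82%, 14.18% and 18.53% in mOPC. In mESC the close divergent pairs were thus about as uneven as these neighbours, and in mOPC more of the close pairs were within 2-fold. In the close pairs, the weaker gene gave a median of 22.4%, 22.8% and 23.0% of the pair's tags by library in mESC, and 26.8%, 27.5% and 26.8% in mOPC. Pairs were thus less even in every mESC library than in any mOPC library (22.7% ± 0.316 against 27.04% ± 0.421, SD, n = 3 each, exact permutation p = 0.1). Other neighbours were less even in mESC too, at 20.4% against 24.3% for pairs with overlapping 5′ ends, 21.7% against 24.6% for the more distant divergent pairs and 21.9% against 24.8% for tandem pairs. The same gene was the stronger one in all 3 libraries of a cell type in 95.5% of these pairs in mESC and 95.2% in mOPC.

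**Figure D1:**
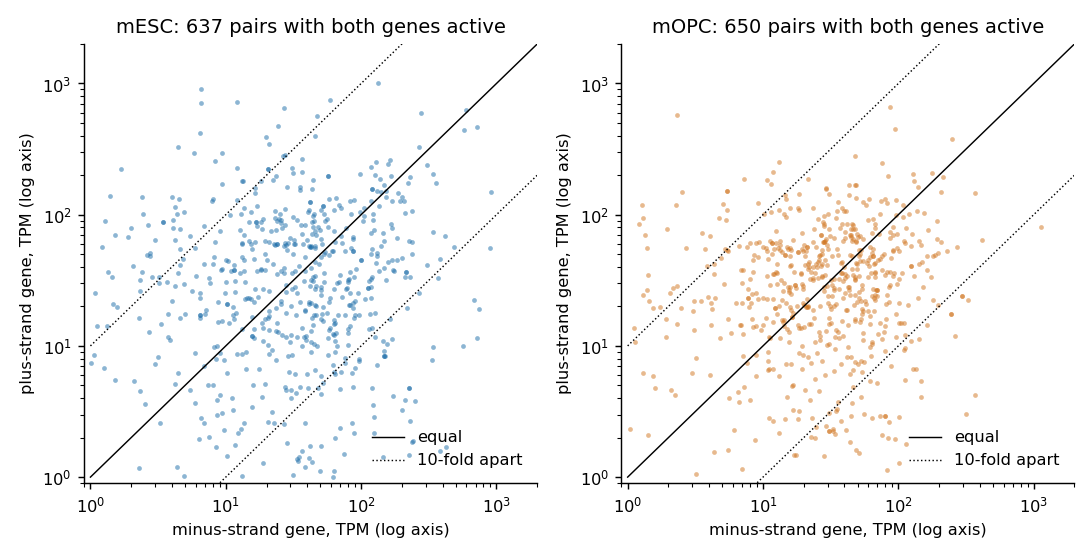
Level of the minus-strand gene (horizontal) against the plus-strand gene (vertical) of each pair, as mean TPM over 3 libraries on log axes, for pairs with both genes active in mESC (left, 637 pairs) and mOPC (right, 650 pairs). The solid line marks equal levels and the dotted lines a 10-fold difference, beyond which 139 and 94 pairs lie.

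Slc7a6os, a nuclear transport factor, and Prmt7, an arginine methyltransferase, were the most evenly transcribed pair, by the larger of the log2 ratios in the 2 cell types, although their annotated 5′ ends lie 1 bp apart. Slc7a6os had 143.0, 168.9 and 143.4 TPM by library in mESC, and 40.6, 39.6 and 39.0 in mOPC. Prmt7 had 160.7, 144.8 and 147.9 and then 43.4, 36.6 and 39.3. The 2 genes overlapped within each cell type, whereas the cell types did not overlap. Prmt7 gave 50.0% ± 3.46 of the pair's tags in mESC and 50.0% ± 1.82 in mOPC (SD, n = 3), and both genes fell by 1.93 on the log2 scale (SE 0.0886 for Slc7a6os and 0.0882 for Prmt7, edgeR adjusted p = 7.44e-33 and 6.37e-33). Pigf, which acts in GPI anchor synthesis, and Cript, a synaptic protein, were next, with Cript at 48.9% ± 1.99 and 50.1% ± 3.73 of the tags, and Tango2 and the catenin Arvcf followed, with Arvcf at 50.4% ± 6.81 and 48.1% ± 1.42.

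At the other end, Cdc27, a subunit of the anaphase-promoting complex, had 102.8 times the tags of the myosin light chain gene Myl4 in mESC and 48.9 times in mOPC, the most unequal pair by the smaller of the 2 folds. Larger folds were reached in a single cell type, such as 251.2-fold for Hsp90b1 over Ttc41 in mESC. Myl4 had 1.38, 0.965 and 1.91 TPM in mESC and 1.97, 2.16 and 1.70 in mOPC, which overlap at 1.70 to 1.91. Aagab exceeded Iqch by 46.1-fold and 52.1-fold, and Exoc2, a subunit of the exocyst, exceeded the predicted gene Gm5447 by 44.2-fold and 79.2-fold. Of the Myl4 tags from the window to the end of the gene, only 5.32% in mESC and 18.7% in mOPC lay in the window, so that most of its starts were elsewhere. The window also held only 16.2% of the tags of Iqch in mOPC, 33.3% of those of Arvcf in mESC, and 38.9% and 47.0% of those of Tango2 in mESC and mOPC.

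The spacing of the starts in use was wider than the annotation. The positions with the most tags were 227 bp apart at the median in mESC (quartiles 132 and 371) and 221 bp in mOPC (126.2 and 367), where the annotated 5′ ends of the same pairs were 119 and 120 bp apart. In 79.8% of the genes in mESC and 79.0% in mOPC the top position lay downstream of the annotated 5′ end, by 27 bp at the median over all genes, and the annotated end is the outermost one of a gene's transcripts. The order of the top positions was crossed in 2 pairs in mESC and 3 in mOPC. Of 1287 members active in both cell types, 60.9% used the same top position, beside 61.8% of all protein-coding genes.

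**Figure D2:**
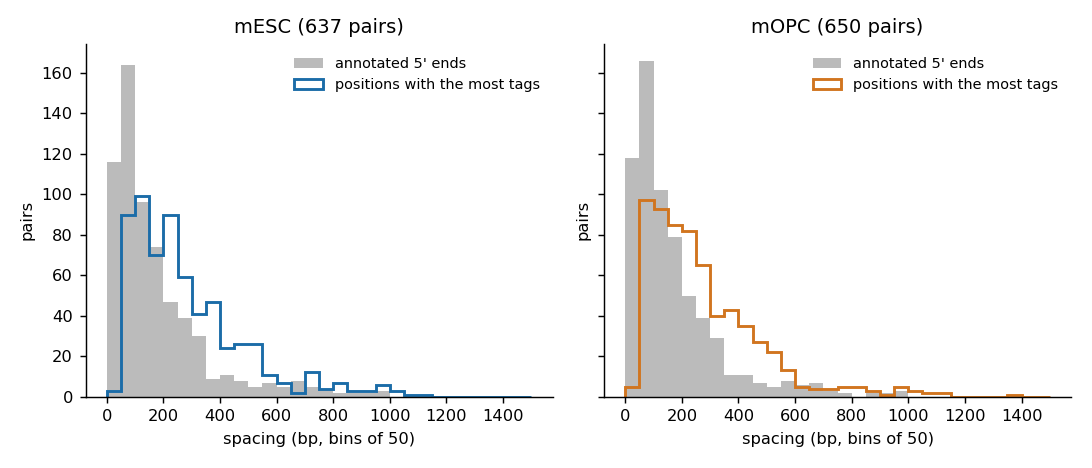
Number of pairs (vertical) by spacing in bp, in bins of 50 (horizontal), for annotated 5′ ends (grey) and for positions with the most tags (coloured line), in mESC and mOPC. The coloured lines lie to the right of the grey bars, with medians of 227 and 221 bp against 119 and 120 bp; the pairs with crossed positions, 2 in mESC and 3 in mOPC, are not drawn.

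Between the cell types, the changes of members were smaller at the median than those of all genes. Of the 1487 genes, 1392 passed the filter on low counts and 95 did not. By edgeR's quasi-likelihood test with Benjamini-Hochberg adjustment over all 13058 genes tested, 566 members (40.7%) were higher in mOPC and 650 (46.7%) lower, where 42.1% and 49.0% of all genes were called. Since most genes passed that test, calls with a change of at least 2-fold are also given, a rule added after the values were seen. With it, 327 members (23.5%) were higher and 398 (28.6%) lower, beside 28.5% and 35.7% of all genes tested. The median size of the log2 change was 1.04 for members and 1.54 for all genes, and the signed medians were -0.10 and -0.17.

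The 2 genes of a pair changed in the same direction somewhat more often than in opposite directions, at a share near that of other neighbours. Both genes were tested in 689 pairs. In 531 pairs both were called, of which 150 were higher together, 183 lower together and 198 opposite. The same direction was thus taken by 62.7% of pairs with both called, beside 64.3% of pairs with overlapping 5′ ends, 62.9% of divergent neighbours more than 1000 and up to 10000 bp apart, 56.8% of tandem neighbours at that distance and 55.8% of convergent neighbours. With the 2-fold rule, both were called in 198 pairs, of which 60 were higher together, 83 lower together and 55 opposite, while a single gene was called in 317 pairs and none in 174. Opposite changes then made up 27.8% of pairs with both called, beside 27 of 108 with overlapping 5′ ends and 31.9%, 35.2% and 41.5% of the more distant divergent, tandem and convergent pairs. Pairs with a single gene called and pairs with both called numbered 150 and 108 among those with overlapping 5′ ends, 163 and 163 among the more distant divergent pairs, 176 and 193 among tandem pairs and 947 and 875 among convergent pairs. Changes had the same direction in 412 of the 689 pairs (59.8%), beside 60.0% of pairs with overlapping 5′ ends, 58.9% of the more distant divergent pairs, 58.3% of tandem and 53.9% of convergent neighbours.

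Across the 689 pairs the log2 changes had a Pearson r of 0.56 and a Spearman rho of 0.31, given as a description, since pairs share the 6 libraries. The r was 0.68 for pairs with overlapping 5′ ends, 0.25 for the more distant divergent pairs, 0.27 for tandem and 0.10 for convergent neighbours. It was lower without the pairs that fell under the activity threshold on either side. Over the 617 pairs with both genes active in both cell types r was 0.29, beside 0.18 for pairs with overlapping 5′ ends, 0.26 for the more distant divergent pairs, 0.36 for tandem pairs and 0.16 for convergent pairs.

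**Figure D3:**
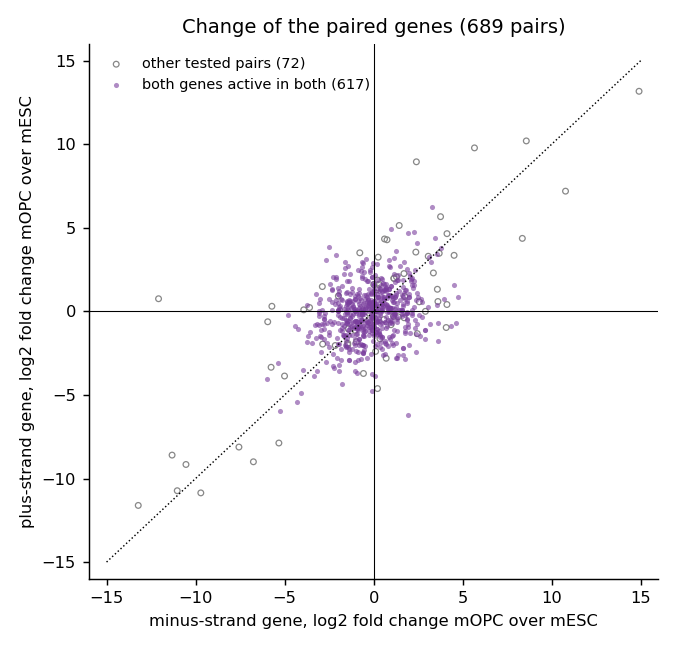
Log2 fold change from mESC to mOPC of the minus-strand gene (horizontal) and the plus-strand gene (vertical) for 689 tested pairs, with filled points for the 617 pairs whose genes were both active in both cell types and open points for the other 72. The far ends of the dotted line of equal change hold open points, while the filled points form a broad cloud around the origin.

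In the pairs that changed most together, the starts next to each other were used in one cell type and nearly silent in the other. Sox6, a transcription factor of the oligodendrocyte lineage, had 0 tags in the window in all mESC libraries and 137.1, 152.0 and 135.5 TPM in mOPC, and its partner 1110004F10Rik had 0 and then 42.6, 41.1 and 42.9. Against a floor of 3 tags pooled over the mESC libraries, Sox6 was at least 3415-fold higher and 1110004F10Rik at least 1024-fold higher in mOPC. These floors and the intervals given below cover counting error only. The window held only 8.55% of the tags of Sox6 in mOPC and 34.5% of those of 1110004F10Rik, so the genes had further starts inside them. In mESC, too, 1110004F10Rik had 4942 tags between the window and the end of the gene, and Sox6 also had tags there. The folds thus describe the starts next to each other and not the genes.

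Nr2e1, a nuclear receptor of neural progenitors, and Ostm1, a lysosomal membrane protein, each had 1 tag in mESC. In mOPC Nr2e1 had 7.12, 7.71 and 6.20 TPM and Ostm1 had 21.2, 19.4 and 23.5. The ratio was 500.7 for Nr2e1 (exact 95% counting interval 89.5 to 19810) and 1573 for Ostm1 (282.0 to 62170). For Ostm1 this describes the start next to Nr2e1 and not the gene, since only 0.0508% of the tags of Ostm1 lay in the window in mESC. Ifit1, an interferon-induced gene, had 0.451, 0.302 and 0.436 TPM in mESC and 67.1, 54.0 and 61.4 in mOPC, while its neighbour Ifit1bl2 had 0 and then 8.59, 6.95 and 8.56, a rise of at least 195.1-fold. These genes are similar in sequence, so that reads could be assigned to the wrong copy. Cspg4, the NG2 proteoglycan and a marker of oligodendrocyte progenitors, rose from 0.477, 0.844 and 0.818 to 610.2, 549.7 and 572.8 TPM, and Odf3l1 on the other strand from 3 tags in all to 2.43, 2.16 and 2.34 TPM. In mOPC, Cspg4 had 249.9 times the tags of Odf3l1, so a shared rise came with a very uneven pair.

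In the other direction, N4bp3 had 45.8, 43.7 and 42.1 TPM in mESC and D930048N14Rik 12.8, 15.7 and 15.1, and both had 0 in every mOPC library, which makes them at least 1348-fold and 426.8-fold lower. Plcd3, a phospholipase C, and Acbd4 had 9.23, 10.56 and 9.11 and 7.69, 9.23 and 6.60 TPM in mESC and 0 in mOPC, at least 288.5-fold and 235.8-fold lower. Lsr, a lipoprotein receptor of epithelial cell contacts, fell from 41.6, 39.9 and 38.3 TPM to 1 tag in all, and Fam187b from 5.46, 6.21 and 6.76 likewise. Kctd19 fell from 12.44, 13.03 and 13.96 TPM to 1 tag in all and Lrrc36 from 7.82, 9.59 and 8.45 to 0. Outside the windows, the 3 mOPC libraries together held 908 tags of Acbd4, 27 of Plcd3, 19 of Lrrc36, 10 of N4bp3 and 1 of D930048N14Rik, so that for these genes the folds describe the starts in the window. The window held 1 of the 17 tags of Lsr in mOPC, 1 of 5 of Kctd19 and 1 of 2 of Fam187b. Both genes were under the threshold in mESC and both active in mOPC in 8 pairs, and the reverse held in 8 pairs.

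Sharp opposite changes also occurred across short stretches. Cenpx, a kinetochore and DNA repair protein, had 122.7, 112.9 and 112.7 TPM in mESC and 20.7, 19.1 and 15.8 in mOPC. Lrrc45, a centrosomal linker protein, had 17.9, 17.6 and 16.9 and then 142.4, 133.3 and 156.7. Every library placed Cenpx above Lrrc45 in mESC and below it in mOPC. Cenpx fell by 2.66 on the log2 scale (SE 0.0947, edgeR adjusted p = 9.59e-40) and Lrrc45 rose by 3.05 (SE 0.0968, adjusted p = 5.04e-43), while the recorded top positions stayed 211 bp apart in both cell types.

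Zfp277, a zinc finger protein, had 70.6, 82.5 and 75.8 TPM in mESC and 11.4, 12.7 and 14.9 in mOPC, and Dock4, a guanine nucleotide exchange factor, had 17.8, 15.8 and 18.3 and then 237.4, 253.9 and 262.4. The stronger side moved to Dock4 in all 3 mOPC libraries. Rad9b, a checkpoint clamp gene, rose from 33.1, 36.2 and 41.2 to 168.8, 181.6 and 210.7 TPM, and Vps29, a retromer subunit, fell from 287.3, 269.7 and 236.9 to 50.7, 51.3 and 46.7. Here, too, the top positions stayed 211 bp apart, and the printed stretch served both states. Gfer with Noxo1, Cct5 with Fam173b and Hsp90b1 with Ttc41 were also among the 55 pairs with opposite changes of at least 2-fold, and in these 3 pairs the minus-strand gene fell. The 6 pairs named here are those in which the smaller of the paired changes was largest. Hsp90b1 and Cct5, both chaperones, fell by 2.28 and 2.14 on the log2 scale, and Ttc41 and Fam173b rose by 2.07 and 2.08 (SE 0.0929, 0.0925, 0.170 and 0.102, edgeR adjusted p between 6.59e-19 and 6.70e-36).

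Whether the balance of a pair changed was tested directly, with each library as a block and adjustment over all 9443 neighbouring pairs tested. The ratio changed in 582 of 689 pairs (84.5%), where 88.7% of all neighbouring pairs were called. It changed by at least 2-fold in 390 (56.6%), beside 73.1% of all neighbouring pairs, 54.9% of pairs with overlapping 5′ ends, 65.7% of the more distant divergent pairs and 76.5% of tandem pairs. The median size of the log2 change of the ratio was 1.24 for close divergent pairs and 2.49 for all neighbouring pairs. The stronger gene was a different one in the other cell type in 158 of the 617 pairs active in both (25.6%), in 128 of them in every library, and 34 switched with at least 2-fold on either side. The share among other neighbours was 26.6% to 27.7%.

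Among called pairs with both genes active in both cell types, the largest change of balance was at Sgce and Peg10. These are neighbouring imprinted genes, both known to be expressed from the paternal allele. Peg10, a retrotransposon-derived gene, had 459.6, 385.5 and 422.7 TPM in mESC and 4.73, 6.11 and 5.95 in mOPC. Sgce, a sarcoglycan, had 5.91, 6.75 and 6.54 and then 27.8, 25.6 and 18.9. Peg10 gave 98.5% ± 0.227 of the pair's tags in mESC and 19.3% ± 4.73 in mOPC (SD, n = 3). The log2 ratio of Peg10 to Sgce fell by 8.12 (SE 0.159, edgeR adjusted p = 1.33e-63), with starts 208 bp apart in both cell types. The ratio of Mdh2, the mitochondrial malate dehydrogenase, to Styxl1 fell by 5.37 on the log2 scale (SE 0.172, edgeR adjusted p = 8.20e-54), with Styxl1 at 0.928, 1.45 and 1.799 and then 16.2, 15.9 and 15.3 TPM. Nlgn2, a postsynaptic adhesion protein, rose from 4.59, 5.13 and 5.29 to 140.2, 119.7 and 111.2 TPM beside Tmem256, which went from 17.5, 16.4 and 18.3 to 10.93, 11.03 and 10.50.

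**Figure D4:**
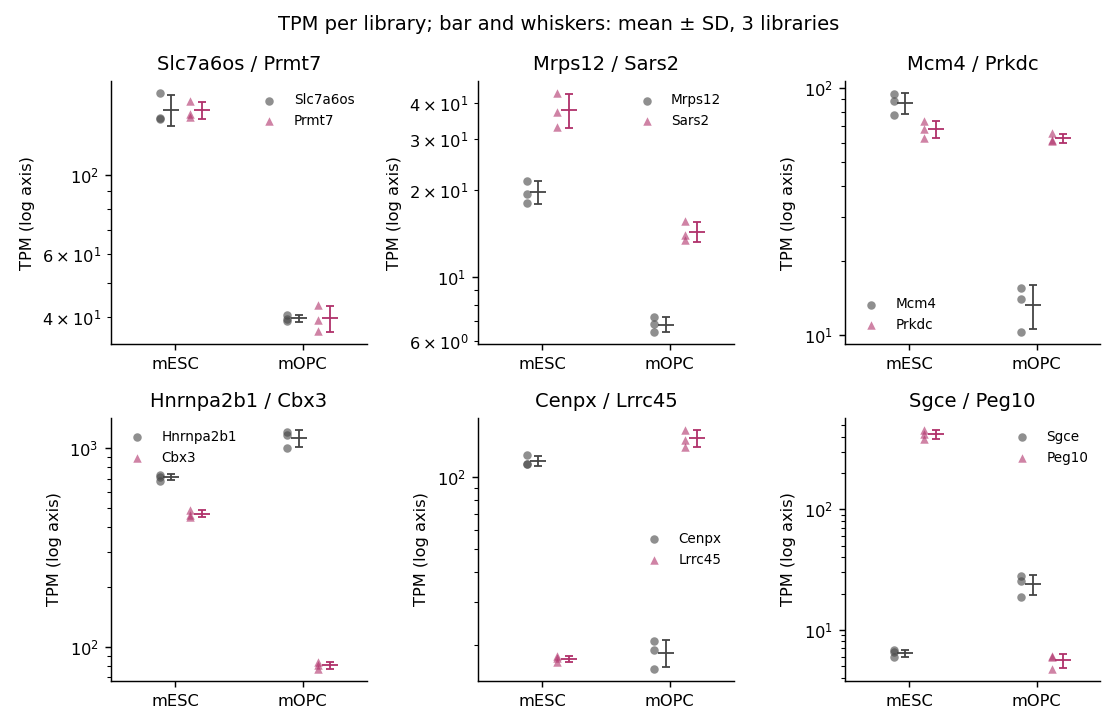
TPM on log axes in each library (points) with mean ± SD over 3 libraries (bar and whiskers) for 6 pairs, circles for the minus-strand gene and triangles for the plus-strand gene, in mESC and mOPC. Slc7a6os and Prmt7 fell to the same level, Mrps12 and Sars2 fell in parallel, Mcm4 and Cbx3 fell without their partners, and Cenpx with Lrrc45 and Sgce with Peg10 exchanged places.

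Among 11 pairs known from textbooks, 4 met the rule and the other 7 have annotated 5′ ends that overlap. Mrps12, a mitochondrial ribosomal protein, had 21.5, 19.4 and 17.9 TPM in mESC and 6.84, 7.22 and 6.42 in mOPC, and Sars2, the mitochondrial seryl-tRNA synthetase, had 43.3, 33.0 and 37.1 and then 13.9, 13.4 and 15.6. They fell by 1.53 and 1.40 on the log2 scale (SE 0.119 and 0.105, edgeR adjusted p = 6.66e-20 and 2.37e-20), and the ratio was not called changed (log2 change 0.13, SE 0.158, adjusted p = 0.442 by edgeR). Atm, the kinase of the DNA damage response, was not called changed (log2 change -0.12, SE 0.0857, edgeR adjusted p = 0.193), and Npat, which drives histone gene transcription, fell by 0.69 (SE 0.0838, adjusted p = 7e-12). Mcm4, a subunit of the replicative helicase, had 77.4, 94.3 and 87.9 TPM in mESC and 15.52, 14.06 and 10.28 in mOPC, while Prkdc, the DNA-dependent protein kinase, had 62.5, 67.9 and 73.2 and then 60.8, 65.5 and 61.1. Prkdc overlapped between the cell types and Mcm4 did not. Pdcd10 fell by 0.30 (SE 0.0861, edgeR adjusted p = 0.000873) as Serpini1, a serpin of the nervous system, rose by 1.05 (SE 0.0961, adjusted p = 9.6e-17).

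Among the pairs with the most tags in all were genes of RNA-binding, chromatin and purine synthesis proteins. Hnrnpa2b1, an RNA-binding protein, had 718.5, 686.2 and 734.2 TPM in mESC and 1211, 999.6 and 1172 in mOPC, and Cbx3, a heterochromatin protein, 452.5, 490.5 and 460.7 and then 83.4, 77.2 and 80.7. Cbx3 thus fell from 39.6% ± 1.78 to 6.68% ± 0.417 of the pair's tags. Gart, an enzyme of purine synthesis, fell by 1.68 on the log2 scale (SE 0.0861, edgeR adjusted p = 4.84e-30), and the splicing cofactor Son was not called changed (log2 change 0.15, SE 0.0932, adjusted p = 0.129).

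Some functional groups were frequent among the pairs. Of 67 replication-dependent histone genes, which are expressed in S phase, 27 were members (40.3%), and in 13 pairs both genes were histones. Of the 23 tested, 21 were lower in mOPC by at least 2-fold and 1 was higher, with a median log2 change of -3.95, and 49 of the 57 tested histone genes as a whole were lower, with a median of -3.58. Histone genes have near-identical copies, so that their counts are uncertain. Of 152 genes of DNA replication and repair, 42 (27.6%) were members, and 19 of 40 tested were lower and 2 higher, where 74 of 144 in the whole list were lower and 14 higher. Members were 18 of 78 mitochondrial ribosome genes, with 11 of 18 lower and 0 higher beside 35 and 0 of 75 in the list, and 23 of 94 respiratory chain genes, with 12 of 23 lower and 1 higher beside 58 and 4 of 89. Their medians of -1.07 and -1.31 were near those of the whole lists, -0.95 and -1.41. Among zinc finger proteins 26 of 465 (5.59%) were members, and 8 of 24 tested were higher and 2 lower, where 106 of 398 in the whole list were higher and 122 lower. Cytoplasmic ribosome genes had 10 members of 102, with 7 of 8 tested lower and 0 higher beside 79 lower and 3 higher of 92 in the list. Chaperones had 13 of 84, with 7 of 11 lower and 2 higher beside 39 and 10 of 70, and tRNA synthetases and initiation factors 11 of 89, with 7 of 11 lower and 0 higher beside 44 and 3 of 85. Proteasome genes had 8 members of 50, with 2 lower and 2 higher of 8 tested beside 24 lower and 4 higher of 44. Collagens had 3 members of 45, with 1 tested and 0 called beside 12 lower and 10 higher of 24, and nucleotide synthesis had 1 of 22, which was lower, beside 12 lower and 1 higher of 22.

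The rank correlations of distance with balance and with co-change were near 0. Activity and the share changing in the same direction were lowest among the pairs furthest apart. Over pairs with both genes active, the rank correlation of distance with imbalance was 0.033 in mESC and 0.026 in mOPC, and that with the difference of the 2 log2 changes was 0.081, over 689 pairs. Of the 312 pairs up to 100 bp apart, 281 had both genes active in mESC and 285 in mOPC. Of the 70 pairs over 500 bp apart, 43 and 38 did. Over these active pairs, the weaker gene gave 23.2% ± 0.359 of the tags in mESC up to 100 bp and 21.2% ± 1.02 over 500 bp. In mOPC it gave 27.7% ± 0.202 and 26.1% ± 0.0337 (SD, n = 3). Activity differed at the far end, beyond the 500 bp that the windows reach. In nearer pairs each window also covers the partner's 5′ end, and the part of this in the difference was not tested. Both genes were active in 90.1% of pairs up to 100 bp apart in mESC and 91.3% in mOPC, in 82.0% to 89.0% of the pairs over 100 and up to 500 bp apart, and in 61.4% and 54.3% of the pairs over 500 bp apart. Changes had the same direction in 59.9%, 57.8%, 67.0% and 67.2% of pairs in successive bins up to 100, 200, 300 and 500 bp, and in 44.0% of the 50 tested pairs beyond. The 2 log2 changes of a pair differed by a median of 1.15, 1.26, 0.90 and 1.73 in these bins and by 1.69 beyond. Their Pearson r was 0.48, 0.58, 0.58 and 0.67 in these bins and 0.58 beyond, within the range of the nearer bins. Over pairs with both genes active in both cell types, r was 0.22, 0.29, 0.44 and 0.39. Beyond 500 bp it was 0.18 over 36 such pairs, below each nearer bin. In another pair with ends 1 bp apart, Bag4 and Lsm1, Bag4 fell by 4.27 on the log2 scale and Lsm1 by 1.04 (SE 0.116 and 0.0964, edgeR adjusted p = 1.67e-32 and 2.11e-16). In the most distant one, Btf3l4 and Txndc12 at 987 bp, Btf3l4 fell by 1.45 and Txndc12 rose by 0.24 (SE 0.0846 and 0.0858, edgeR adjusted p = 1.26e-26 and 0.00721).

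**Figure D5:**
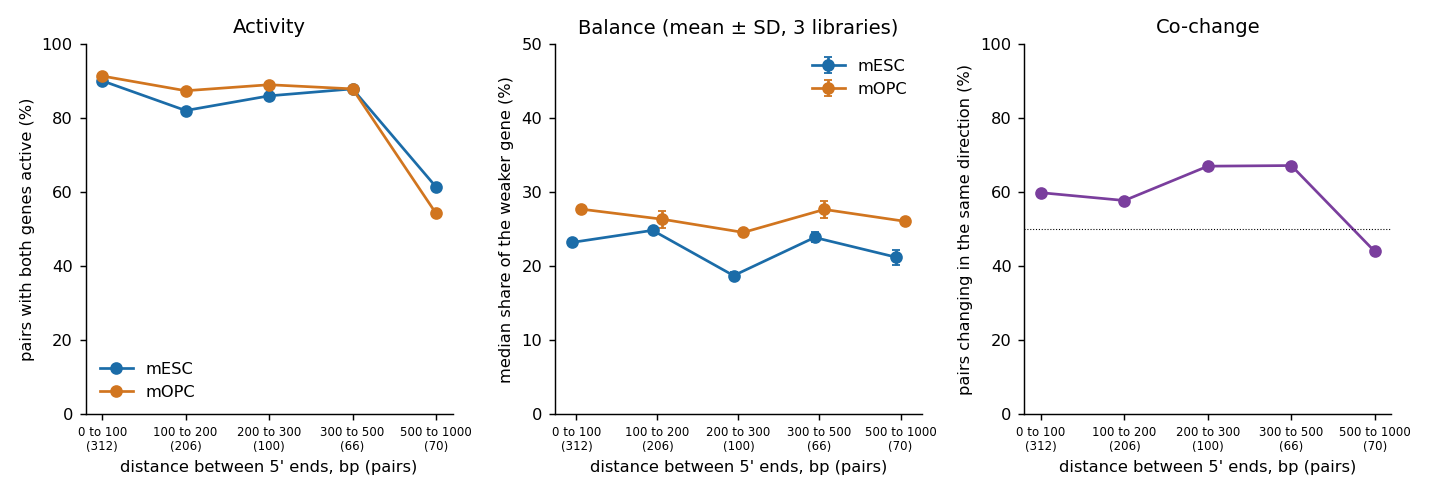
Pairs grouped by distance between annotated 5′ ends (horizontal, bp, with the number of all pairs). The percent with both genes active is shown first. The median share of the weaker gene in percent (mean ± SD of 3 libraries) covers only pairs with both genes active. The percent changing in the same direction covers only pairs with both genes tested, and the dotted line marks 50. Activity and shared direction were lowest over 500 bp, at 61.4% and 54.3% and at 44.0%, while the weaker share showed no steady trend.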

How the data were processed

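CAGE libraries were made by the authors from nuclear RNA. According to the methods of the study, reads trimmed to tags of 21 to 27 nt were mapped to mm10 with bowtie and kept when unique, whereas the submitters' processing notes name BWA 0.5.9 and CASAVA 1.8, so the aligner of these files is not settled here. The deposited values are raw counts of tags per position and strand. Depth per library ranged from 16657021 to 40928704 tags. Windows, pairs and tags per 1000000 (TPM) were computed with Python 3.11.15, on chromosomes 1 to 19, X and Y, with GENCODE M21. Counts were tested with edgeR 4.0.16 in R 4.3.3 (TMM, low-count filter, quasi-likelihood). Limma 3.58.1 and DESeq2 1.42.0 served as alternatives. In simulated data, 200 genes were changed by 2 on the log2 scale, all others were unchanged, and the biological coefficient of variation was 0.1. Of those tested, 199 of 199 changed genes and 279 of 279 changed pairs were recovered, with 10 false calls in each set. The simulation did not cover smaller changes, or data in which most genes change, as was called here.

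Members, lists and pairs to name were chosen with earlier results of these data known. Pairs named were those known from textbooks, the 3 with the most tags, the 4 highest and 4 lowest together, 6 opposite, 6 with the largest ratio change, the 3 most and 3 least equal, and the closest and most distant. Ratio changes, equality and distance were ranked only among pairs with both genes active in both cell types. Pairs of 2 predicted genes were not named. A pair among those with the most tags is not reported here. Promoter sequences and matches came from RefSeq, GRCm38.p6.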

Additional observations from a re-analysis of the deposited data

How the results depend on the processing

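Of 161 recomputed values, 128 kept their direction and moved by no more than the spread between libraries or, for counts, by less than 1.5 times, such as 390 for 582 changed ratios with the 2-fold requirement. A further 31 moved by more than that spread and 2 counts fell by more than 1.5 times. None reversed. The cause of each shift was not tested. With the requirement of a 2-fold change, chosen after seeing the data, 327 members were higher and 398 lower in place of 566 and 650. The median share of the weaker gene was 21.5% in mESC and 26.1% in mOPC with windows of 200 bp, 27.6% and 30.4% with an activity threshold of 5 TPM, and 21.4% and 26.2% with a threshold of 0.2. The correlation of the paired changes was 0.2913 over pairs active in both cell types, 0.5519 with windows of 200 bp, 0.55 with windows from 100 bp upstream, 0.5759 over pairs with windows of their own and, in an alternative chosen after seeing the data, 0.5357 without histone genes. Leaving out 1 library gave 0.5515 to 0.5741. The share with the same direction was 57.7%, 58.4% and 58.0% with windows of 200 bp, windows from 100 bp upstream and pairs active in both cell types. Distance and imbalance in mESC had a correlation of 0.0414 with windows of 200 bp, 0.0281 in thinned libraries, 0.0105 by top positions and 0.0229 over pairs with windows of their own, and 0.0211 to 0.0371 without 1 library. In mOPC it was 0.0476 at a threshold of 0.2 and 0.0102 by top positions. Distance and the difference of changes had 0.0947 with windows from 100 bp upstream, 0.0467 and 0.0342 at thresholds of 5 and 0.2, 0.0713 in thinned libraries and 0.0663 by top positions. The values at thresholds of 5 and 0.2 cover only pairs with both genes past the threshold in both cell types. The main value has no such filter.

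Deviations of same-numbered libraries of the 2 cell types had correlations of 0.0063, 0.0781 and 0.0261. Those of differently numbered libraries ran from -0.102 to 0.0838. With 3 libraries each, these values cannot show whether libraries were paired by design, and the main gene test did not pair them. With the replicate number as a block, 566 members were called higher, 651 lower and 580 ratios changed, the correlation was 0.5601 and 60.1% of pairs had the same direction.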

Other observations

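Of the 1487 member genes, 81 (5.45%) were active in 1 cell type only, beside 13.3% of all protein-coding genes. The tags of active members were spread over a median of 51 bp in mESC and 53 bp in mOPC, as the width that holds the central 80% of the tags, beside 55 and 57 bp for all active protein-coding genes. Chromosome 11 held the most pairs, 68.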
